A study of Homo sapiens with 24 samples.

Results

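The comparison described here set ABBV-744 at 200 nM against ABBV-075 at 100 nM in MV-4-11 cells treated for 24 h. Its members were all genes with at least 1 FPKM (fragments scaled to transcript length and to the library total) in at least 2 of the 4 libraries with a compound, which held for 12156 of the 30373 genes and transcripts in the deposited table. The groups were MV-4-11 with ABBV-744 at 200 nM, MV-4-11 with ABBV-075 at 100 nM and MV-4-11 with DMSO, the vehicle, with 2 libraries each. The same treatments were given to SKM-1 and Kasumi-1, which are further acute myeloid leukaemia lines, and to NCI-H1299, a lung cancer line, so the study holds 24 libraries. All cells grew in RPMI-1640 with 10% serum, and poly-A RNA was sequenced. The doses of the compounds differ, and no second dose was given, so each value below compares the compounds at these doses. Nothing in the labels says that paired libraries came from separate cultures, so p-values reflect the spread between the sequenced samples, which may be technical.

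BET proteins are chromatin readers with a pair of bromodomains, which bind acetylated lysines on histones and other proteins. They help to recruit the elongation kinase P-TEFb to active genes, and leukaemia cells with MLL fusions are known for their dependence on them. ABBV-075 (mivebresib) blocks both bromodomains, and ABBV-744 was made to prefer the second bromodomain over the first. MV-4-11 is a line from a monocytic leukaemia with an MLL fusion and an activated FLT3 receptor.

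The expression of defining genes fitted the label. SPI1, the lineage factor of myeloid cells, read 104 and 127 FPKM with ABBV-744, 74.2 and 78.8 FPKM with ABBV-075 and 93.1 and 119.8 FPKM with DMSO, the receptor FLT3 166 and 157 FPKM with ABBV-744, 130.4 and 125 FPKM with ABBV-075 and 165 and 141 FPKM with DMSO, and CD33, MEIS1 and HOXA9 stayed between 29.6 FPKM and 119.9 FPKM in every library. The integrin ITGAM, a marker of mature myeloid cells, was low but read higher with both compounds. It had 2.26 and 2.73 FPKM with ABBV-744, 2.80 and 3.48 FPKM with ABBV-075 and 0.851 and 0.865 FPKM with DMSO. No gene of an 11-gene T and B lymphoid list passed the filter, and its summed level was 1.32 to 2.18 FPKM with ABBV-744, 1.42 to 1.86 FPKM with ABBV-075 and 2.37 to 3.02 FPKM with DMSO. The 9 epithelial and fibroblast markers summed to 4.54 to 5.56 FPKM with ABBV-744, 6.68 to 7.84 FPKM with ABBV-075 and 7.78 to 9.57 FPKM with DMSO. The 12 erythroid and megakaryocyte markers summed to 9.40 to 9.67 FPKM with ABBV-744, 6.71 to 7.43 FPKM with ABBV-075 and 14.1 to 15.3 FPKM with DMSO, and 1 of them, EPOR, was tested. The paired libraries were close, with r from 0.991 to 0.992 across the members, which are not independent replicates. Mitochondrial transcripts took 7.69% to 8.30% of the FPKM sum with ABBV-744, 7.91% to 8.0% with ABBV-075 and 6.70% to 6.86% with DMSO.

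Genes were compared on the scale log2(FPKM + 1) with limma, a linear model that shares the spread between libraries across genes, and genes with an adjusted p under 0.05 are referred to as called. Each ± gives the standard error of a log2 difference from groups of 2 libraries. At these doses 2649 of the 12156 members were called, which is 21.8% of those tested. Of these, 1478 were higher with ABBV-744 (12.2%) and 1171 were lower (9.63%). A difference of at least 2-fold in FPKM + 1, which is stricter than 2-fold in FPKM, held for 318 of the higher and 189 of the lower genes. The median difference over all members was 0.02 log2. The median size among called genes was 0.67 log2. In 8190 members, 67.4%, the ABBV-744 libraries did not overlap the ABBV-075 libraries, and this held for all 2649 called genes.

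A fit without 1 of the 4 libraries leaves 1 library in its group, which widens the standard errors whatever that library holds. The count of called genes was lower in each such fit. It was 1745 without ABBV-744 replicate 1, 1713 without ABBV-744 replicate 2, 1702 without ABBV-075 replicate 1 and 1636 without ABBV-075 replicate 2. All 2649 called genes kept their sign in these 4 fits, which was fixed in advance because their libraries did not overlap. Some members had to differ because they passed the filter through 1 compound alone. These were 191 genes that reached 1 FPKM in both libraries with ABBV-744 and in neither with ABBV-075, and 193 genes the other way round. The 453 genes that reached 1 FPKM in a single compound library stayed outside, with a median of 1.17 FPKM in their highest library, against 1.58 FPKM for the 514 members at exactly 2 libraries.

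**Figure D1:**
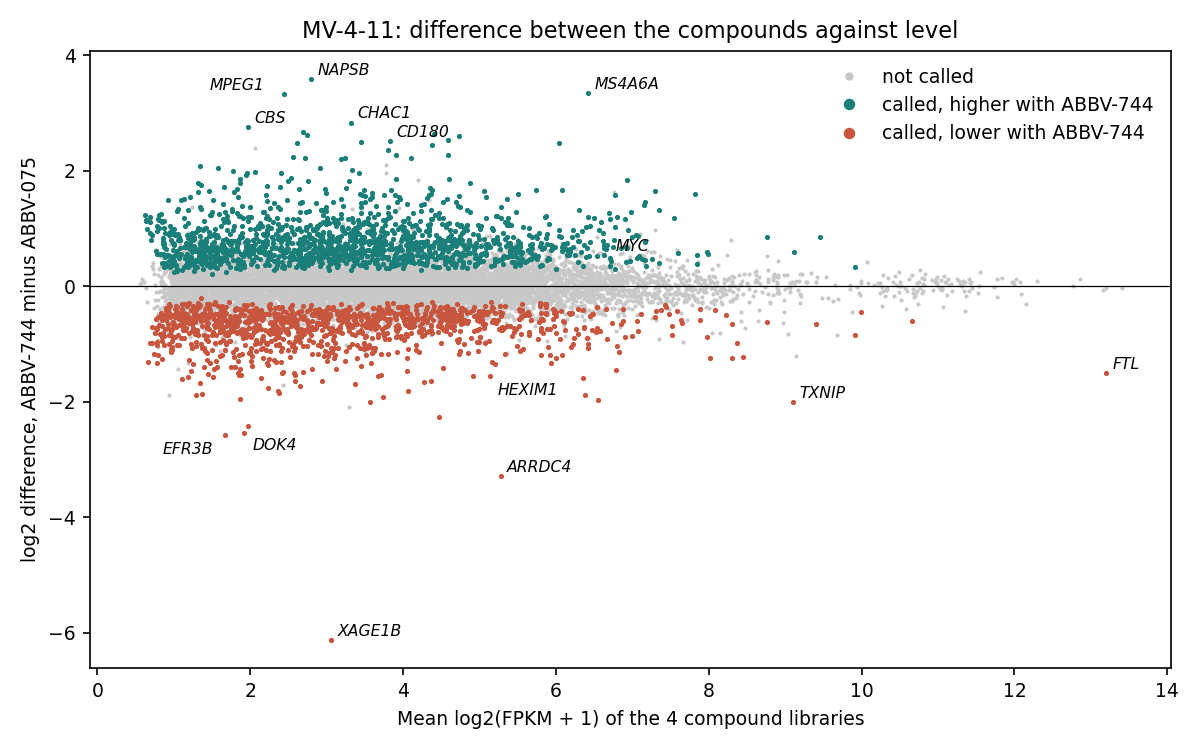
Difference between the compounds in MV-4-11 for each of the 12156 members (y axis, log2 scale, ABBV-744 minus ABBV-075) against its mean level in the 4 compound libraries (x axis, log2(FPKM + 1)). Points in colour are the 1478 genes called higher and the 1171 called lower with ABBV-744, and the point of XAGE1B marks a gene listed at 0 with ABBV-744. Calls were found at all levels, from 28.5% of genes under a mean of 5 FPKM to 12.8% of genes at 100 FPKM or more.

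Most genes listed as known to rise when BET proteins are inhibited were lower with ABBV-744 than with ABBV-075. This list, like the others, was chosen with earlier results of these data known, so its counts are no independent test. Lists also share genes, so their counts are not separate. From this list HEXIM1, TXNIP, ARRDC4, CDKN1A, HIST2H2BE, HIST1H2BK, HIST1H2BD and HIST1H2AC are counted again in lists below. Of a list of 12 such genes, 11 were called lower with ABBV-744 and 1 higher, with a median of -1.5 log2 against 0.02 over all members. HEXIM1, which holds P-TEFb inactive and serves as a marker of BET inhibition, had 19.3 and 19.7 FPKM with ABBV-744, 59.98 and 58.4 FPKM with ABBV-075 and 9.10 and 9.21 FPKM with DMSO. Its difference between the compounds was -1.55 ± 0.15 (adjusted p = 2.65e-06). SERPINI1, a serine protease inhibitor also used as a marker, had 4.78 and 3.81 FPKM with ABBV-744, 13.2 and 13.5 FPKM with ABBV-075 and 1.19 and 0.945 FPKM with DMSO. The difference was -1.44 ± 0.17 (adjusted p = 1.70e-05). For both markers the ABBV-744 libraries lay between the DMSO and the ABBV-075 libraries, with no overlap.

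TXNIP, an arrestin that restrains glucose uptake, had 278 and 269 FPKM with ABBV-744, 1119 and 1084 FPKM with ABBV-075 and 108 and 105 FPKM with DMSO, with a difference of -2.01 ± 0.12 (adjusted p = 7.54e-09). Its relative ARRDC4 had 12.4 and 10.5 FPKM with ABBV-744, 118 and 122 FPKM with ABBV-075 and 7.01 and 5.60 FPKM with DMSO, with a difference of -3.29 ± 0.14 (adjusted p = 3.00e-10). In ARRDC4 and TXNIP both ABBV-744 libraries stood above both DMSO libraries and far below both ABBV-075 libraries. The single list gene higher with ABBV-744 was the chromatin reader ZMYND8, at 0.85 log2, which was picked out after its value was seen. Against DMSO, 10 of the 12 listed genes rose and 1 fell with ABBV-744, where 9.95% of all members were called. With ABBV-075 11 rose and 1 fell, where 41.5% of all members were called. Of the 9 arrestin and glucose transporter genes tested, 4 were lower and 1 was higher, the fructose transporter SLC2A5 at 0.98, and the main glucose transporter SLC2A1 was not called at -0.49. Without 1 compound library 2 or 3 of the 9 were lower.

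**Figure D2:**
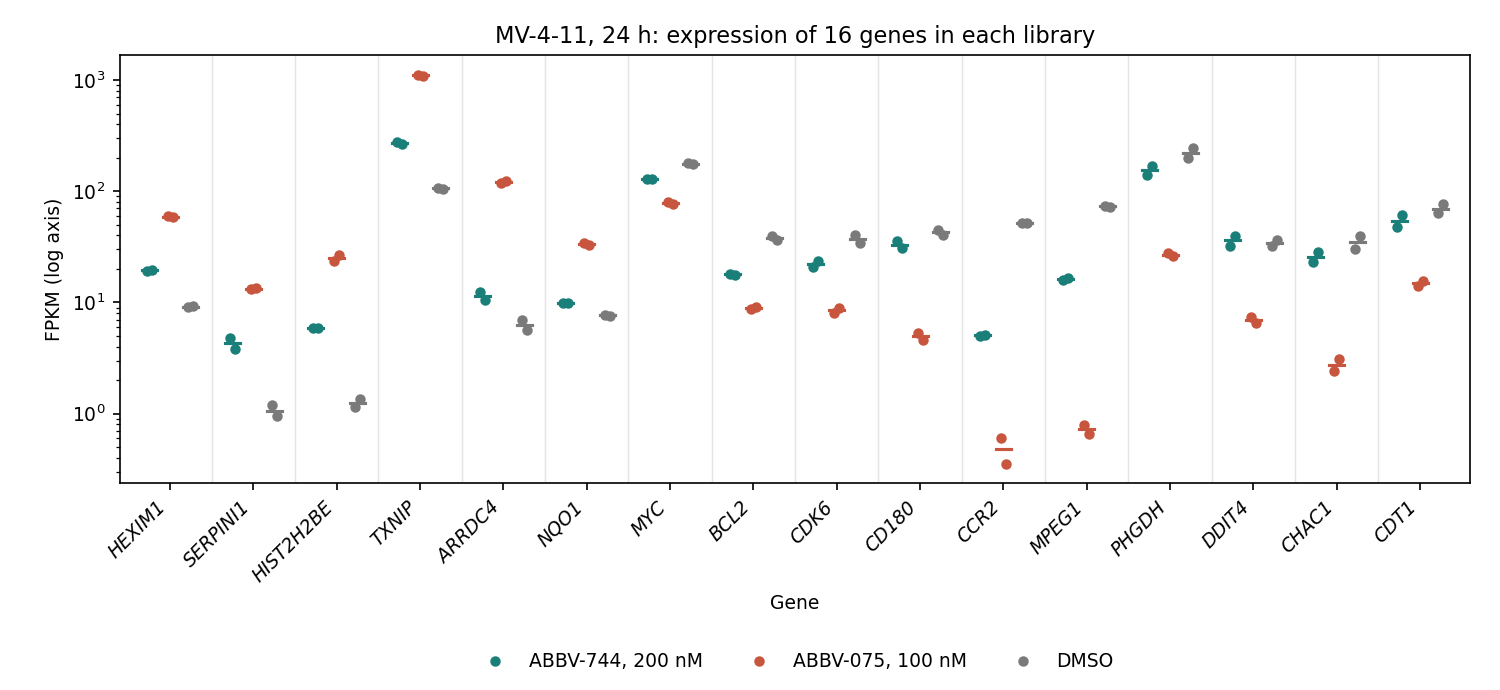
Expression of 16 genes in each MV-4-11 library (y axis, FPKM on a log axis; a point per library, a bar at the mean of 2). HEXIM1, SERPINI1, HIST2H2BE, TXNIP, ARRDC4 and NQO1 read highest with ABBV-075, and the genes from MYC to CDT1 read lowest with it. DDIT4 with ABBV-744 lay within or near its DMSO values.

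Among genes of P-TEFb and transcript elongation 5 of 18 were lower and 1 was higher with ABBV-744 (33.3% called, against 21.8% of all members). Beside HEXIM1 the lower ones included the elongation factor ELL2, with 2.85 and 2.25 FPKM with ABBV-744 and 9.30 and 9.12 FPKM with ABBV-075, with a difference of -1.53 ± 0.16, and MLLT3, at -1.04, which passed the filter through its ABBV-075 libraries alone. HEXIM2, the paralog of HEXIM1, went the other way, with 3.83 and 4.46 FPKM with ABBV-744, 1.79 and 1.61 FPKM with ABBV-075 and 3.88 and 4.58 FPKM with DMSO. Its difference was 0.93 ± 0.18 (adjusted p = 0.00117). Of the BET genes themselves, BRD2 had 99.8 and 102 FPKM with ABBV-744, 134 and 134 FPKM with ABBV-075 and 68.7 and 74.3 FPKM with DMSO, with a difference of -0.40 ± 0.11 (adjusted p = 0.0164) that was not called once any 1 of the 4 compound libraries was left out (adjusted p = 0.0659 to 0.0897). BRD3 read 14.8 and 16.7 FPKM with ABBV-744, 14.2 and 14.1 FPKM with ABBV-075 and 12.9 and 14.7 FPKM with DMSO and was not called at 0.15 (95% interval -0.13 to 0.42).

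Most histone genes of the replication clusters, which can be read from poly-A RNA as a minor polyadenylated form, were lower with ABBV-744. Of 15 such genes tested 12 were lower, at a median of -1.05 log2, and 1 of the 12 passed the filter through ABBV-075 alone. Of 9 replacement or variant histone genes 2 were higher, at a median of -0.28 log2. This split was made after the values were seen. Of all 24 histone genes tested, 12 were lower and 2 higher with ABBV-744, with a median of -0.78 log2, and without 1 compound library 11 or 12 were lower and 1 was higher. The median over all 24 was -0.46 with a pseudocount of 5 FPKM. HIST2H2BE, an H2B gene, had 5.89 and 5.88 FPKM with ABBV-744, 23.4 and 26.5 FPKM with ABBV-075 and 1.14 and 1.37 FPKM with DMSO, with a difference of -1.91 ± 0.10 (adjusted p = 2.41e-09). HIST1H2BD had 11.3 and 10.1 FPKM with ABBV-744, 34.6 and 36.7 FPKM with ABBV-075 and 1.58 and 2.26 FPKM with DMSO and differed by -1.65 ± 0.13, and HIST1H2BG had 1.38 and 1.68 FPKM with ABBV-744, 6.47 and 6.83 FPKM with ABBV-075 and 0.220 and 0.445 FPKM with DMSO and differed by -1.60 ± 0.21. In all 3 genes each ABBV-744 library lay above both DMSO libraries and below both ABBV-075 libraries. HIST2H4A, at -2.27 ± 0.15, and HIST2H2AA4, at -1.98 ± 0.23, have near-identical copies, as several histone genes do, that may share their reads, so these values are uncertain. The 2 genes higher with ABBV-744 code for the variants H2A.Z and macroH2A, H2AFZ at 0.60 and H2AFY at 1.31, and were picked out after their values were seen. H3F3A, a variant H3 gene, had libraries far apart, at 732 and 187 FPKM with ABBV-744, against 822 and 886 FPKM with ABBV-075 and 181 and 185 FPKM with DMSO, and was not called.

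Promoter sequence was looked up for groups whose members moved together. Their lists were chosen with earlier results of these data known, and genes of a family or pathway can share motifs whatever their RNA did. Matches were not compared between called and uncalled genes, here or for the motifs below. The octamer ATTTGCAT, a known element of H2B promoters, was found on either strand within 250 bases before to 50 bases after the start in 10 of 23 histone promoters, against 1.8% of 27305 promoters in RefSeq (GRCh38.p14). The stretches below come from the minus strand, with the octamer in capitals. They lie at chr1:149886703-149886782 for HIST2H2BE and at chr6:26216709-26216788 for HIST1H2BG.
HIST2H2BE: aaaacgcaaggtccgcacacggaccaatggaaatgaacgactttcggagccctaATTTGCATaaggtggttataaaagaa
HIST1H2BG: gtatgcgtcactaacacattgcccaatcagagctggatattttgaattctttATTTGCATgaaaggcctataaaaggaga
The octamer starts 46 bases before the start of HIST2H2BE and 48 bases before that of HIST1H2BG. These matches describe sequence and show no binding.

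The genes that BET inhibitors are known to lower were mostly higher with ABBV-744 than with ABBV-075. Of 12 such genes, also listed with earlier results of these data known, 10 were higher and none was lower. Their median was 1.0 log2, and an unadjusted p under 0.05 also gave 10 and 0. Without 1 compound library 7 to 9 were called higher. Of the 12, 2 passed the filter through their ABBV-744 libraries alone. MYC, the transcription factor that drives growth, had 130.0 and 129.6 FPKM with ABBV-744, 80.8 and 76.7 FPKM with ABBV-075 and 178 and 174 FPKM with DMSO, with a difference of 0.71 ± 0.17 (adjusted p = 0.00763). The ABBV-744 libraries of MYC lay between the others, and the call was lost without ABBV-075 replicate 2 (adjusted p = 0.0597). BCL2, which blocks apoptosis, had 17.9 and 17.7 FPKM with ABBV-744, 8.81 and 9.001 FPKM with ABBV-075 and 39.8 and 36.3 FPKM with DMSO, with a difference of 0.93 ± 0.12 (adjusted p = 2.69e-05). The cell cycle kinase CDK6 had 20.97 and 23.7 FPKM with ABBV-744, 8.06 and 8.89 FPKM with ABBV-075 and 40.2 and 34.4 FPKM with DMSO, with a difference of 1.30 ± 0.19 (adjusted p = 0.000151).

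CD180, a surface receptor of B cells and monocytes, had 35.4 and 30.8 FPKM with ABBV-744, 5.33 and 4.63 FPKM with ABBV-075 and 44.8 and 40.6 FPKM with DMSO, with a difference of 2.51 ± 0.10 (adjusted p = 1.90e-10). Its ABBV-744 libraries came close to the DMSO level, and the ABBV-075 libraries were far below both. CCR2, the receptor for the monocyte chemokine CCL2, had 4.999 and 5.12 FPKM with ABBV-744, 0.598 and 0.355 FPKM with ABBV-075 and 52.3 and 51.5 FPKM with DMSO. MPEG1, a pore-forming protein of macrophages, had 15.9 and 16.6 FPKM with ABBV-744, 0.787 and 0.656 FPKM with ABBV-075 and 73.6 and 72.6 FPKM with DMSO. Both CCR2 (2.04 ± 0.11) and MPEG1 (3.33 ± 0.12) passed the filter through ABBV-744 alone, so they had to differ, and in both genes DMSO stood highest. The progenitor factor MYB had 273 and 249 FPKM with ABBV-744, 199 and 202 FPKM with ABBV-075 and 259 and 227 FPKM with DMSO, and its difference of 0.38 ± 0.12 was not called without any 1 of the compound libraries (adjusted p = 0.0741 to 0.227). CCND2 and LTB, at 0.08 and -0.05, were not called.

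Genes of amino acid supply were higher with ABBV-744 than with ABBV-075, and this was among the widest gaps between the compounds. ATF4 is a transcription factor that cells translate when amino acids run short, and its targets make or import amino acids and charge tRNAs. Of 22 ATF4 pathway genes 20 were higher with ABBV-744 and none was lower, also at an unadjusted p under 0.05, with a median of 1.17 log2, and 18 or 19 were called when 1 compound library was left out. CHAC1, which degrades glutathione, had 23.1 and 28.3 FPKM with ABBV-744, 2.39 and 3.09 FPKM with ABBV-075 and 30.3 and 39.7 FPKM with DMSO, with a difference of 2.83 ± 0.24 (adjusted p = 4.67e-07). PHGDH, the entry enzyme of serine synthesis, had 139.8 and 169 FPKM with ABBV-744, 27.8 and 25.9 FPKM with ABBV-075 and 201 and 245 FPKM with DMSO, with a difference of 2.47 ± 0.26 (adjusted p = 4.99e-06). ALDH1L2, a mitochondrial folate enzyme, had 14.7 and 16.7 FPKM with ABBV-744, 1.78 and 1.65 FPKM with ABBV-075 and 30.99 and 28.6 FPKM with DMSO, with a difference of 2.62 ± 0.11 (adjusted p = 3.00e-10).

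In CHAC1, PHGDH and ALDH1L2 the ABBV-744 libraries read below both DMSO libraries and several times above both ABBV-075 libraries. DDIT4, an inhibitor of the growth kinase mTORC1, had 32.4 and 39.9 FPKM with ABBV-744, 7.35 and 6.57 FPKM with ABBV-075 and 32.1 and 36.1 FPKM with DMSO, so the ABBV-744 and DMSO libraries overlapped while ABBV-075 stood below. Its difference between the compounds was 2.22 ± 0.16 (adjusted p = 1.04e-07). ASNS, asparagine synthetase, had 147 and 133 FPKM with ABBV-744, 64.5 and 64.5 FPKM with ABBV-075 and 208 and 199.9 FPKM with DMSO, with a difference of 1.11 ± 0.14 (adjusted p = 3.72e-05). The cystine transporter gene SLC7A11, at 1.76, was 1 of 2 genes of the list that passed the filter through ABBV-744 alone. ATF5 and CEBPB were not called, at 0.74 and 0.02.

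Of 16 amino acid transporters 11 were higher and 1 was lower with ABBV-744, at a median of 1.10 log2, and 3 of the 16 passed through ABBV-744 alone. The median was 0.50 with a filter of 5 FPKM and 0.46 with a pseudocount of 5 FPKM. The glutamine transporter SLC1A5 had 214 and 262 FPKM with ABBV-744, 88.3 and 83.05 FPKM with ABBV-075 and 263 and 338 FPKM with DMSO, with a difference of 1.46 ± 0.23 (adjusted p = 0.000209). SLC7A1, which carries arginine and lysine, differed by 1.42 ± 0.14 and SLC7A5, which carries leucine, by 1.32 ± 0.25, while SLC7A6 was not called at 0.01. The lower one, SLC43A2 at -0.64, was picked out after its value was seen, and 0 or 1 of the list was lower without 1 compound library. Of 20 cytosolic tRNA synthetase genes 11 were higher, also when any 1 compound library was left out, and none was lower, at a median of 0.68 log2, while 13 were higher and 0 lower at an unadjusted p under 0.05. AARS, which charges alanine tRNA, had 149 and 170.2 FPKM with ABBV-744, 70.3 and 61.6 FPKM with ABBV-075 and 174.9 and 197 FPKM with DMSO, with a difference of 1.26 ± 0.17, and GARS, for glycine, had 169 and 167 FPKM with ABBV-744, 79.2 and 66.7 FPKM with ABBV-075 and 262 and 244 FPKM with DMSO, with a difference of 1.20 ± 0.13. KARS (0.37) and QARS (0.20), for lysine and glutamine, were not called.

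The 12 largest rises with ABBV-744 also held genes outside these lists. PCK2, the mitochondrial form of PEPCK, had 56.9 and 73.2 FPKM with ABBV-744, 10.1 and 9.63 FPKM with ABBV-075 and 68.95 and 87.4 FPKM with DMSO, with a difference of 2.59 ± 0.28 (adjusted p = 5.98e-06). ASS1, an enzyme of arginine synthesis, had 52.8 and 60.9 FPKM with ABBV-744, 9.78 and 8.28 FPKM with ABBV-075 and 193 and 231 FPKM with DMSO, with a difference of 2.53 ± 0.28 (adjusted p = 8.05e-06). In both genes the ABBV-744 libraries read above the ABBV-075 libraries, and in ASS1 they also read well below DMSO. CBS, which joins homocysteine and serine, passed through ABBV-744 alone, at 8.38 and 10.1 FPKM with ABBV-744, 0.541 and 0.469 FPKM with ABBV-075 and 20.1 and 25.5 FPKM with DMSO, and has a near-identical copy that may share its reads.

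The motif TGATGNAA, which ATF4 and its C/EBP partners bind, was found on either strand in 4 of 18 promoters of the ATF4 pathway list, in 3 of 15 of the transporters and in 6 of 16 of the tRNA synthetases, against 3.67% of all 27305 promoters, and the lists share genes. The promoters of ASNS (chr7:97872429-97872508, minus strand) and CHAC1 (chr15:40953231-40953310, plus strand), in GRCh38.p14, hold it in capitals, in CHAC1 as its reverse complement.
ASNS: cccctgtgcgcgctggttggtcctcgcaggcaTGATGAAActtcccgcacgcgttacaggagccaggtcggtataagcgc
CHAC1: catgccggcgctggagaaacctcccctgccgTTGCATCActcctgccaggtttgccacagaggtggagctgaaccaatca
The match begins 68 bases before the start of ASNS and 209 bases before that of CHAC1. Promoters without these letters may hold them elsewhere, and a match does not show that ATF4 binds.

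DNA replication genes were higher with ABBV-744 almost throughout. Of 39 genes of replication and the entry into S phase 37 were higher and none was lower, at a median of 1.01 log2, and 38 were higher at an unadjusted p under 0.05. The count was 30 or 31 when 1 compound library was left out, and 1 of the 37 passed the filter through ABBV-744 alone. CDT1, which loads the replicative helicase, had 47.4 and 60.9 FPKM with ABBV-744, 14.2 and 15.6 FPKM with ABBV-075 and 63.1 and 76.01 FPKM with DMSO, with a difference of 1.78 ± 0.25 (adjusted p = 7.95e-05). CDC45, a part of the active helicase, had 35.04 and 36.6 FPKM with ABBV-744, 11.5 and 9.24 FPKM with ABBV-075 and 42.4 and 49.9 FPKM with DMSO, with a difference of 1.71 ± 0.17 (adjusted p = 3.34e-06). The helicase subunit MCM5 had 83.8 and 105 FPKM with ABBV-744, 29.1 and 28.8 FPKM with ABBV-075 and 99.2 and 122 FPKM with DMSO, with a difference of 1.66 ± 0.30, and ORC1, of the origin recognition complex, had 19.2 and 21.3 FPKM with ABBV-744, 6.02 and 5.86 FPKM with ABBV-075 and 20.7 and 22.7 FPKM with DMSO, with a difference of 1.61 ± 0.20. In these 4 genes both ABBV-744 libraries lay above both ABBV-075 libraries, and none of the 4 was called against DMSO with ABBV-744. GINS4 (0.23) and TK1 (0.85) were the 2 genes not called. In bulk libraries, fewer cells in a cycle stage and less RNA per cell cannot be told apart.

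Against DMSO, 1 of the 39 replication genes was called with ABBV-744, higher, where 9.95% of all members were called, and 33 were called lower with ABBV-075, where 41.5% of all members were called and 20.8% were called lower. The median differences from DMSO were -0.07 with ABBV-744 and -1.09 with ABBV-075. Of 32 mitotic genes 12 were higher with ABBV-744 than with ABBV-075 and none was lower, at a median of 0.45 log2, with 16 and 0 at an unadjusted p under 0.05. The count was 6 to 10 when 1 compound library was left out. FOXM1, a transcription factor of the mitotic genes, had 25.4 and 30.9 FPKM with ABBV-744, 13.1 and 12.9 FPKM with ABBV-075 and 28.3 and 27.4 FPKM with DMSO, with a difference of 1.05 ± 0.18 (adjusted p = 0.000532), and the checkpoint kinase BUB1B differed by 0.69 ± 0.14. BUB3 (-0.04) and PTTG1 (-0.35) were not called. No mitotic gene was called against DMSO with ABBV-744 (0 higher and 1 lower at an unadjusted p under 0.05), while 13 of 32 were lower with ABBV-075.

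The E2F motif TTTGGCGC was found on either strand in 8 of 34 replication promoters, in 0 of 25 mitotic promoters and in 0.659% of all promoters. The promoter of the helicase subunit MCM6 (chr2:135876519-135876598, minus strand, GRCh38.p14) is shown because it holds the motif at 2 places, 152 and 90 bases before the start.
MCM6: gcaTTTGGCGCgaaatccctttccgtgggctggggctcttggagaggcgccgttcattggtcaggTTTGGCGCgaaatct
MCM6, picked out for its motif after its value was seen, was at 0.83 log2 between the compounds.

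Cell cycle inhibitors and G1 kinases were mixed, with 4 of 14 higher and 2 lower with ABBV-744, and 2 higher and 1 or 2 lower without 1 compound library. RBL1, a pocket protein of the RB family, had 11.4 and 11.6 FPKM with ABBV-744, 5.37 and 4.74 FPKM with ABBV-075 and 11.7 and 10.6 FPKM with DMSO, with a difference of 1.05 ± 0.13. The inhibitor CDKN2B had 1.44 and 1.08 FPKM with ABBV-744, 4.31 and 4.24 FPKM with ABBV-075 and 0.630 and 0.935 FPKM with DMSO, with a difference of -1.23 ± 0.10 (adjusted p = 2.57e-07). CDKN1A, the p53 target p21, had 78.8 and 90.04 FPKM with ABBV-744, 130.2 and 133 FPKM with ABBV-075 and 44.97 and 53.3 FPKM with DMSO, with a difference of -0.64 ± 0.18, which was called without ABBV-744 replicate 2 and not without any of the other 3 compound libraries (adjusted p = 0.0823 to 0.145). CDKN2A, with overlapping libraries, was not called at 0.03. Of 21 p53 targets 5 were lower and 4 higher, and 1 or 2 were lower and 2 or 3 higher without 1 compound library. TP53INP1, which promotes autophagy and cell death, had 7.20 and 6.77 FPKM with ABBV-744, 15.2 and 14.3 FPKM with ABBV-075 and 2.26 and 2.03 FPKM with DMSO, with a difference of -0.98 ± 0.16. The stress sensor SESN2 (0.87), which is also in the ATF4 pathway list, and the DNA repair gene DDB2 (0.82) were higher with ABBV-744.

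Among survival genes, BCL2 and its relative BCL2L10 (0.62 ± 0.09) were higher and MCL1 was lower with ABBV-744. MCL1, a short-lived guard against apoptosis, had 111 and 104 FPKM with ABBV-744, 163 and 165 FPKM with ABBV-075 and 100.01 and 86.4 FPKM with DMSO, with a difference of -0.61 ± 0.12 (adjusted p = 0.00122). BCL2L1, which codes for BCL-XL, had 8.18 and 9.88 FPKM with ABBV-744, 6.29 and 5.63 FPKM with ABBV-075 and 11.4 and 12.9 FPKM with DMSO and missed the threshold at 0.52 (95% interval 0.12 to 0.92, adjusted p = 0.0603). Of 9 death-promoting relatives 1 was called, BCL2L11, which codes for BIM. BCL2L11 had 8.85 and 9.66 FPKM with ABBV-744, 15.8 and 16.6 FPKM with ABBV-075 and 6.19 and 6.32 FPKM with DMSO, with a difference of -0.75 ± 0.10 (adjusted p = 3.77e-05). BCL2L11 and MCL1, which act in opposite ways on apoptosis, were both highest with ABBV-075.

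MYC target and nucleolar genes differed little in size, and 29.4% were called, against 21.8% of all members. Of 34 genes 9 were higher and 1 was lower with ABBV-744, at a median of 0.28 log2, and 3 to 5 were higher when 1 compound library was left out. NPM3, a nucleolar chaperone, had 29.7 and 33.01 FPKM with ABBV-744, 18.2 and 18.7 FPKM with ABBV-075 and 43.3 and 53.1 FPKM with DMSO, with a difference of 0.73 ± 0.14, and PA2G4, a growth regulator, one of 0.54 ± 0.11. ODC1, which starts polyamine synthesis, was the lower one, at -0.77, with 105 and 98.3 FPKM with ABBV-744, 174.8 and 174 FPKM with ABBV-075 and 130.4 and 132 FPKM with DMSO. NCL (0.07) and NPM1 (0.16), abundant nucleolar proteins, were not called.

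Of the 12 genes tested of a 25-gene monocyte and macrophage list 5 were higher and 1 was lower with ABBV-744, and 13 genes of the list, CD14 and the S100A8 and S100A9 pair among them, did not pass the filter. The median was 0.50 log2, and without 1 compound library 4 or 5 were higher and none was lower. MPEG1, described above, is 1 of the 5. CSF1R, the receptor of macrophage growth factor, had 12.5 and 13.8 FPKM with ABBV-744, 2.03 and 2.04 FPKM with ABBV-075 and 14.98 and 18.5 FPKM with DMSO, with a difference of 2.22 ± 0.20 (adjusted p = 1.40e-06). The scavenger receptor CD36 had 21.1 and 18.04 FPKM with ABBV-744, 3.10 and 3.69 FPKM with ABBV-075 and 22.9 and 20.1 FPKM with DMSO, with a difference of 2.22 ± 0.10 (adjusted p = 3.00e-10). In both genes the ABBV-744 and DMSO libraries were close and the ABBV-075 libraries stood far below. ITGAM, also of this list and given above, instead read lowest with DMSO and highest with ABBV-075. CD68, a lysosomal macrophage protein, was lower with ABBV-744, at 37.7 and 43.5 FPKM with ABBV-744, 87.4 and 83.3 FPKM with ABBV-075 and 29.2 and 32.8 FPKM with DMSO and -1.06 log2, and was not called without any 1 of the compound libraries (adjusted p = 0.0512 to 0.108). Lysozyme (LYZ) had 552 and 492 FPKM with ABBV-744, 378 and 349 FPKM with ABBV-075 and 1155 and 1021 FPKM with DMSO and was not called at 0.52.

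Of 16 receptors for chemoattractants and cytokines 8 were higher and 1 was lower with ABBV-744, and 5 were higher and none lower when any 1 compound library was left out. CCR2 is 1 of the 8. CCR1, a chemokine receptor of monocytes, had 15.9 and 16.4 FPKM with ABBV-744, 4.67 and 3.95 FPKM with ABBV-075 and 20.6 and 21.1 FPKM with DMSO, with a difference of 1.70 ± 0.10 (adjusted p = 5.36e-09). CSF3R, the G-CSF receptor, had 16.2 and 19.9 FPKM with ABBV-744, 5.17 and 5.58 FPKM with ABBV-075 and 26.4 and 32.5 FPKM with DMSO, with a difference of 1.57 ± 0.26 (adjusted p = 0.00031). FLT3 was not called, at 0.33 (95% interval 0.04 to 0.62). Of 7 MHC class II genes 5 were higher and none was lower, with 6 and 0 at an unadjusted p under 0.05, and 2 or 3 were called when 1 compound library was left out. Their median of 0.66 log2 was 0.43 with a pseudocount of 5 FPKM. HLA-DRA had 35.5 and 27.7 FPKM with ABBV-744, 12.7 and 11.5 FPKM with ABBV-075 and 81.9 and 84.6 FPKM with DMSO, with a difference of 1.31 ± 0.21 (adjusted p = 0.00029). CIITA, the master activator of class II genes, had 2.02 and 3.22 FPKM with ABBV-744, 0.236 and 0.318 FPKM with ABBV-075 and 4.43 and 5.17 FPKM with DMSO and passed the filter through ABBV-744 alone, and CD74, the invariant chain, was not called at 0.29.

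Primary granule genes showed no common direction, with 2 of 11 higher and 1 lower (27.3% called, against 21.8% of all members). MS4A3, a marker of granulocyte and monocyte progenitors, had 209.8 and 168 FPKM with ABBV-744, 62.7 and 62.3 FPKM with ABBV-075 and 424 and 343 FPKM with DMSO, with a difference of 1.57 ± 0.17 (adjusted p = 5.18e-06). The elastase inhibitor SERPINB1 had 60.1 and 55.6 FPKM with ABBV-744, 101 and 105 FPKM with ABBV-075 and 62.2 and 60.97 FPKM with DMSO, with a difference of -0.82 ± 0.17. The granule protease AZU1, with overlapping libraries, was not called at 0.12. Of 20 progenitor transcription factors and HOXA genes 4 were higher and 4 lower, and 0 or 1 was higher and 2 or 3 were lower when 1 compound library was left out. HOXA9, a target of MLL fusions, had 74.5 and 60.9 FPKM with ABBV-744, 109 and 119.7 FPKM with ABBV-075 and 52.1 and 44.8 FPKM with DMSO, with a difference of -0.75 ± 0.16, a call lost without ABBV-744 replicate 2 (adjusted p = 0.0532). SATB1, a chromatin organiser, had 161 and 163 FPKM with ABBV-744, 233 and 254 FPKM with ABBV-075 and 101 and 99.2 FPKM with DMSO, with a difference of -0.58 ± 0.10 (adjusted p = 0.000725). IRF8, a monocyte lineage factor, was higher with ABBV-744, at 147 and 142 FPKM with ABBV-744 and 91.2 and 91.3 FPKM with ABBV-075, with a difference of 0.65, and was called without ABBV-744 replicate 2 and not without any of the other 3 compound libraries (adjusted p = 0.0555 to 0.0624). CEBPA and LMO2 were not called, at -0.33 and -0.25.

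Immediate early genes were lower with ABBV-744 in 9 of 18 cases and higher in 2, at a median of -0.54 log2, which was -0.33 with a pseudocount of 5 FPKM. When 1 compound library was left out 4 or 5 were lower and 0 or 1 higher. IER3, an early response gene, had 3.09 and 3.59 FPKM with ABBV-744, 14.1 and 11.04 FPKM with ABBV-075 and 1.49 and 1.64 FPKM with DMSO, with a difference of -1.64 ± 0.21 (adjusted p = 3.81e-05). IER2 had 77.3 and 77.2 FPKM with ABBV-744, 153 and 164 FPKM with ABBV-075 and 42.3 and 45.1 FPKM with DMSO, with a difference of -1.03 ± 0.20 (adjusted p = 0.00172). JUN, a subunit of the AP-1 factor, had 4.82 and 3.66 FPKM with ABBV-744, 9.29 and 9.90 FPKM with ABBV-075 and 11.9 and 12.1 FPKM with DMSO, with a difference of -1.02 ± 0.14 (adjusted p = 4.65e-05). Whereas IER2 and IER3 read highest with ABBV-075 and lowest with DMSO, JUN read lowest with ABBV-744 and highest with DMSO. FOS was not called at -0.25.

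Inflammatory and interferon genes showed single genes rather than groups, with 26.7% and 11.1% of the lists called, against 21.8% of all members. The share was 20% for the Kruppel-like factors, given last. TNF, which codes for tumour necrosis factor, had 21.4 and 22.6 FPKM with ABBV-744, 55.7 and 59.6 FPKM with ABBV-075 and 6.36 and 8.54 FPKM with DMSO, with a difference of -1.35 ± 0.14 (adjusted p = 3.40e-06), and TNFAIP3, which restrains NF-kB, went the other way at 0.42 ± 0.09. These were 2 of the 4 called among 15 chemokine, cytokine and NF-kB genes, of which 1 was lower and 1 or 2 were higher without 1 compound library, and NFKBIA was not called at 0.05. Of 18 interferon response genes 1 was lower and 1 higher. IFI6, a mitochondrial survival protein, had 5.75 and 4.16 FPKM with ABBV-744, 21.6 and 23.8 FPKM with ABBV-075 and 1.56 and 1.79 FPKM with DMSO, with a difference of -2.01 ± 0.31 (adjusted p = 0.000224). XAF1, an antagonist of the caspase inhibitor XIAP, had 13.7 and 13.2 FPKM with ABBV-744, 1.54 and 1.63 FPKM with ABBV-075 and 37.4 and 32.3 FPKM with DMSO, with a difference of 2.48 ± 0.20 (adjusted p = 2.57e-07). The other named members, BST2 (-0.29) and IFITM2 (0.63), were not called. Of 10 Kruppel-like factors KLF10 was lower, at -0.95 ± 0.13, and KLF6 was higher at 0.52, a call lost without any 1 of the compound libraries (adjusted p = 0.119 to 0.184).

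Genes of iron storage and oxidant defence were lower with ABBV-744. Of 14 ferritin and NRF2 target genes 9 were lower and 1 was higher, SLC7A11, at a list median of -0.60 log2, and 6 or 7 were lower without 1 compound library. SLC7A11 passed the filter through ABBV-744 alone and OSGIN1, an oxidative stress response gene among the 9 that was picked out after its value was seen, through ABBV-075 alone, so both had to differ. FTL, the light chain of ferritin, had 5472 and 5738 FPKM with ABBV-744, 15559 and 16251 FPKM with ABBV-075 and 3366 and 3548 FPKM with DMSO, with a difference of -1.5 ± 0.15 (adjusted p = 3.57e-06). NQO1, a quinone reductase, had 9.82 and 9.97 FPKM with ABBV-744, 33.9 and 32.9 FPKM with ABBV-075 and 7.76 and 7.53 FPKM with DMSO, with a difference of -1.66 ± 0.17 (adjusted p = 3.02e-06). HMOX1, haem oxygenase, had 1.01 and 1.11 FPKM with ABBV-744, 4.45 and 4.46 FPKM with ABBV-075 and 0.284 and 0.311 FPKM with DMSO, with a difference of -1.41 ± 0.13 (adjusted p = 1.10e-06). In these 3 genes every ABBV-744 library lay above DMSO and far below ABBV-075. The pentose phosphate enzymes TALDO1 (0.01) and TKT (-0.14) were not called.

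Of 31 lysosome and autophagy genes 9 were lower and 1 was higher, at a median of -0.40 log2, and 6 to 8 were lower without 1 compound library, and 1 of the 9 passed the filter through ABBV-075 alone. GABARAPL1, an autophagosome protein, had 4.66 and 4.31 FPKM with ABBV-744, 10.3 and 12.2 FPKM with ABBV-075 and 2.44 and 2.75 FPKM with DMSO, with a difference of -1.16 ± 0.12 (adjusted p = 3.09e-06). SQSTM1, an autophagy receptor, differed by -0.89 ± 0.16 and PSAP, a lysosomal lipid-handling protein, by -0.87 ± 0.17. CTSS, a protease of antigen presentation, was the higher one, with 13.5 and 13.7 FPKM with ABBV-744, 5.96 and 5.08 FPKM with ABBV-075 and 14.6 and 12.4 FPKM with DMSO, with a difference of 1.17 ± 0.11. Of 30 cholesterol and fatty acid genes 8 were lower and 2 higher, and without 1 compound library 4 or 5 were lower and none higher. INSIG1, the brake on sterol synthesis, had 38.6 and 33.4 FPKM with ABBV-744, 86.6 and 80.6 FPKM with ABBV-075 and 38.4 and 29.1 FPKM with DMSO, with a difference of -1.20 ± 0.23, and SQLE, squalene epoxidase, one of -0.97 ± 0.11. Shares called were 32.3% in the lysosome list and 33.3% in the cholesterol list, against 21.8% of all members. Of 20 glycolysis genes 4 were lower, among them ENO2 (-1.02 ± 0.11), and 1 was higher, a share of 25% and near that of all members. GAPDH (-0.08) and ENO1 (0.02) were not called. Of 15 heat shock genes (33.3% called) 4 were lower, with the co-chaperone BAG3 at -0.79 ± 0.12, and 1 was higher, the mitochondrial HSPA9 at 0.71 ± 0.10. In each of these last lists 2 to 4 were lower without 1 compound library.

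Ribosomal protein genes and mitochondrial transcripts were not called. Of 36 cytosolic ribosomal protein genes none was called by limma and none had an unadjusted p under 0.05. Their differences ran from -0.18 to 0.25 log2 around a median of 0.02, and 16 of 36 did not overlap, against 67.4% of all members. Of 13 mitochondrially encoded transcripts 0 were called by limma, with 0 at an unadjusted p under 0.05 and a range of -0.17 to 0.09. Shares nearer to the 21.8% called over all members were found in other lists. Of 14 MHC class I presentation genes 2 were higher (14.3%), ERAP1 at 0.65 ± 0.13 and TAPBP at 0.52, the second of which was called without ABBV-744 replicate 1 and not without any of the other 3 compound libraries (adjusted p = 0.0586 to 0.22). Of 25 housekeeping genes 4 were called (16%), of which 1 was higher, the tubulin gene TUBB at 0.85 ± 0.15, and 3 were lower, with POLR2A, the largest subunit of RNA polymerase II, at 56.1 and 72.4 FPKM with ABBV-744 and 109.6 and 99.4 FPKM with ABBV-075. Without 1 compound library 0 to 2 housekeeping genes were lower. The call of POLR2A held without ABBV-744 replicate 2 and was lost without any of the other 3 compound libraries (adjusted p = 0.097 to 0.257).

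Chromatin modifiers moved in both directions, with 6 of 30 lower and 5 higher, and 1 of each passed the filter through the compound it was higher with alone. Shares called were 36.7% for these and 30.8% for the nuclear RNA list below, against 21.8% of all members. The histone demethylase KDM5B had 16.003 and 17.3 FPKM with ABBV-744 and 27.3 and 27.5 FPKM with ABBV-075, with a difference of -0.69 ± 0.12, and the deacetylase HDAC9, which passed through ABBV-744 alone, read 2.51 and 2.61 FPKM with ABBV-744 and 0.900 and 0.635 FPKM with ABBV-075. Without 1 compound library 1 to 3 were lower and 1 to 3 higher. Of 13 nuclear RNAs and small nucleolar RNA hosts 2 were higher and 2 lower, and without 1 compound library 0 or 1 was higher and 1 was lower. NEAT1, the scaffold of paraspeckles, had 23.2 and 28.98 FPKM with ABBV-744, 53.6 and 66.4 FPKM with ABBV-075 and 15.2 and 13.9 FPKM with DMSO, with a difference of -1.17 ± 0.18 (adjusted p = 0.000211). MALAT1, another nuclear RNA, had 27.8 and 33.4 FPKM with ABBV-744 and 69.7 and 65.1 FPKM with ABBV-075, and its call at -1.12 was lost without any 1 of the compound libraries (adjusted p = 0.0916 to 0.19). GAS5 and SNHG6 were not called, at 0.08 and 0.00.

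**Figure D3:**
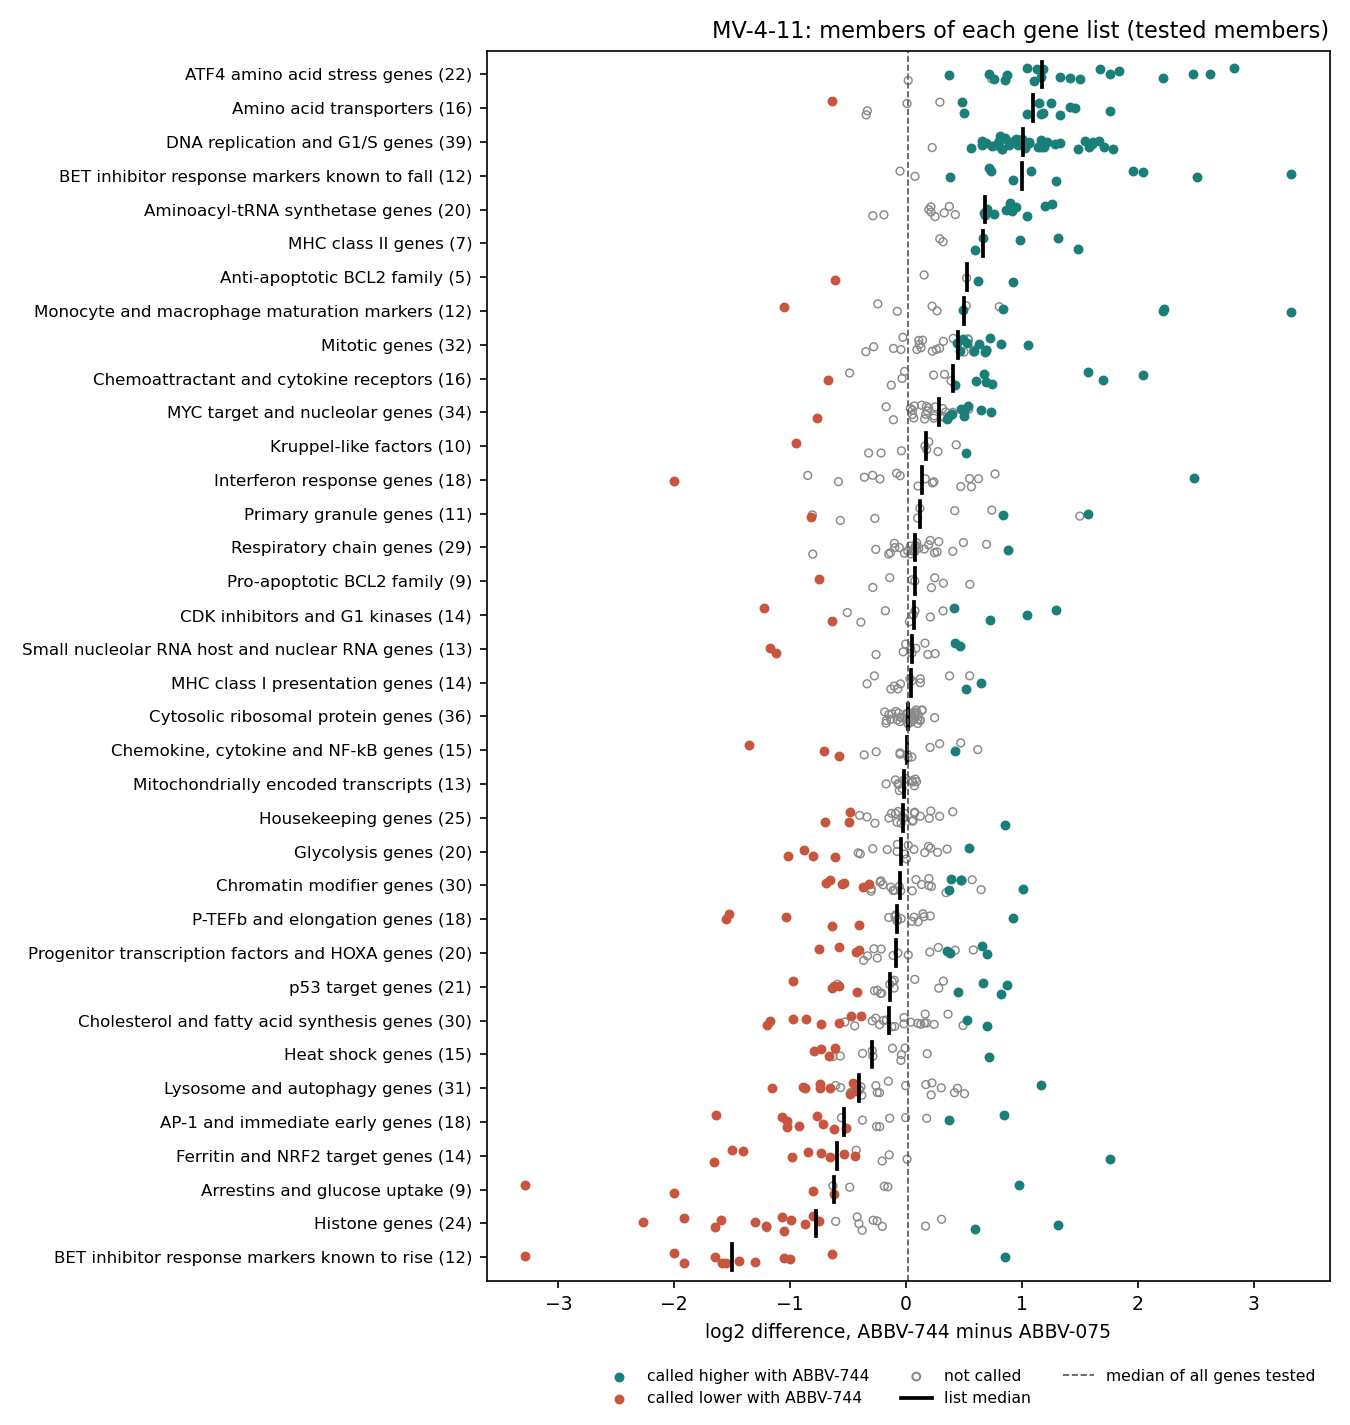
Difference between the compounds for the tested members of each gene list (x axis, log2, ABBV-744 minus ABBV-075; a point per gene, coloured where called; y axis, lists with the number tested). List medians (bars) run from -1.5 for markers known to rise to 1.17 for ATF4 pathway genes, beside a median of 0.02 over all members (dashed).

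Each compound was also set against DMSO in the same fit. With ABBV-744, 548 members rose (4.51%) and 661 fell (5.44%), and 43 rose and 126 fell at least 2-fold in FPKM + 1. Which direction held more genes depended on the setting, with 427 rising and 376 falling at a pseudocount of 0.1, 347 and 312 with a filter of 5 FPKM, and 184 and 386 without DMSO replicate 2. With ABBV-075, 2522 rose (20.7%) and 2528 fell (20.8%), and 558 rose and 841 fell at least 2-fold in FPKM + 1. The ABBV-744 count of 1209 was 679 without ABBV-744 replicate 1, 551 without ABBV-744 replicate 2, 584 without DMSO replicate 1 and 570 without DMSO replicate 2. Both comparisons share the DMSO libraries, so their values are given side by side. The median of the markers known to rise was 1.13 with ABBV-744 and 2.71 with ABBV-075, and that of the markers known to fall was -0.66 with ABBV-744 and -1.98 with ABBV-075. Histone genes were at 0.64 with ABBV-744 and 1.41 with ABBV-075. ATF4 pathway genes were at -0.47 with ABBV-744 and -1.79 with ABBV-075, where 8 of 22 fell with ABBV-744 and 21 of 22 with ABBV-075. Amino acid transporters were at -0.43 with ABBV-744 and -1.75 with ABBV-075. MHC class II genes were at -0.70 with ABBV-744 and -1.36 with ABBV-075.

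**Figure D4:**
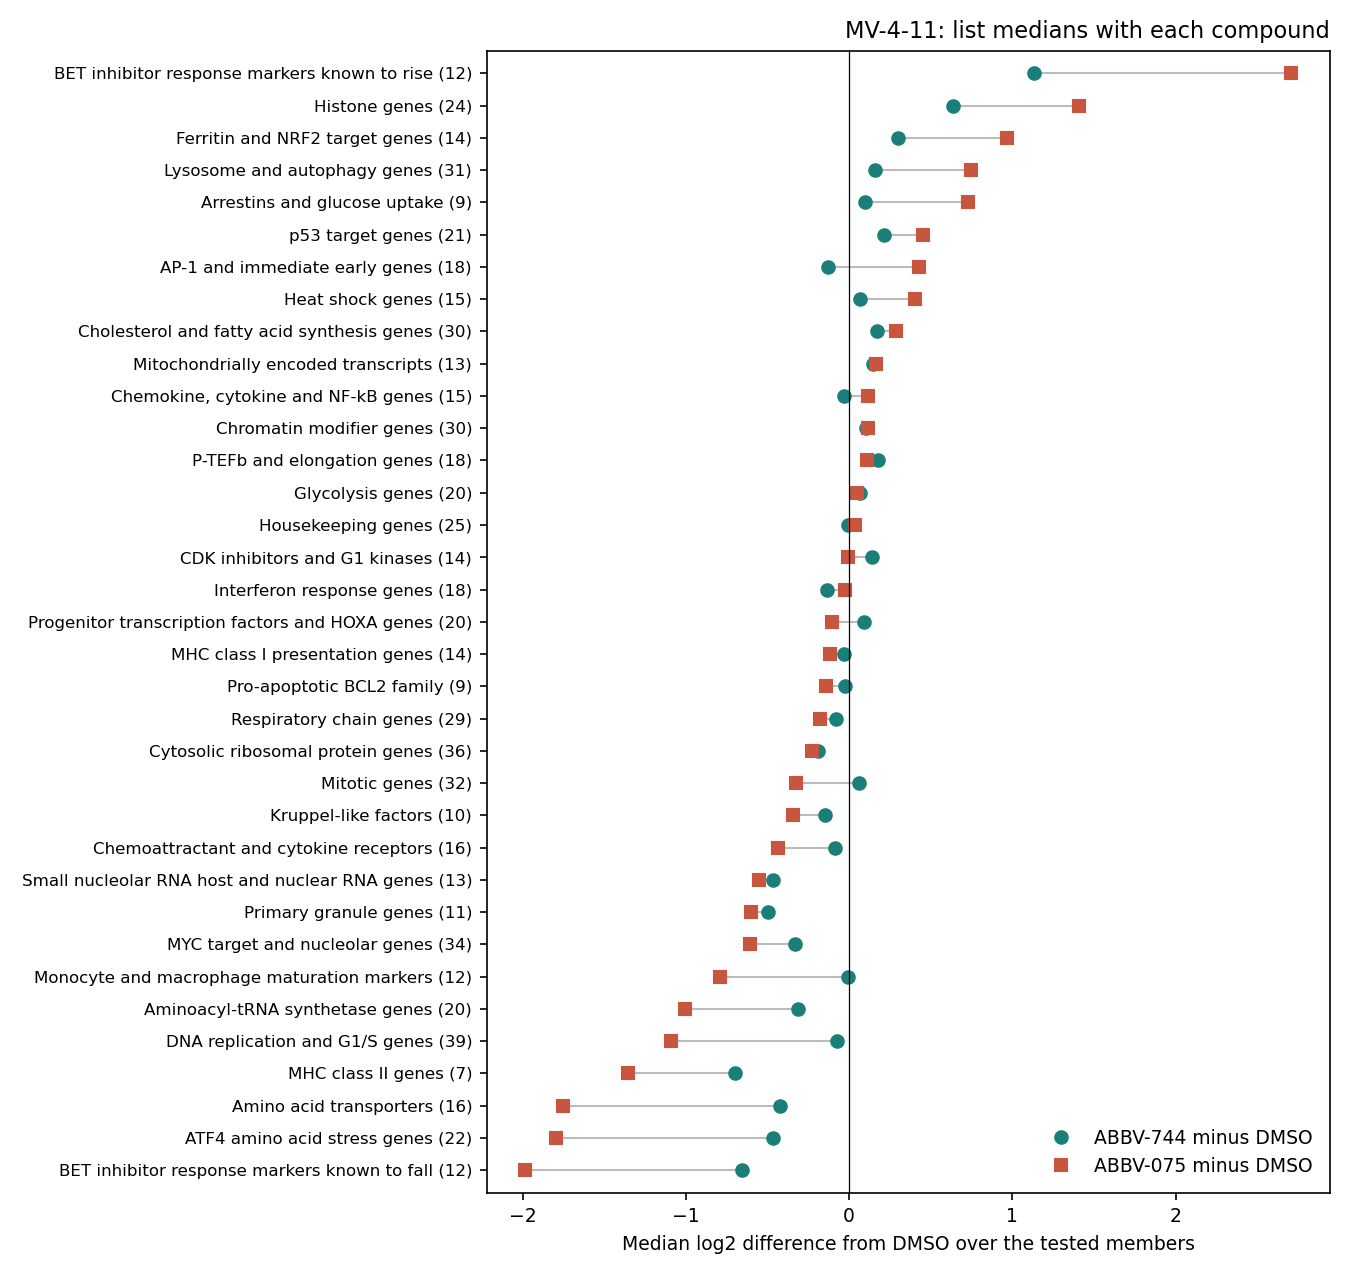
Median log2 difference from DMSO over the tested members of each list (x axis), with ABBV-744 (circles) and ABBV-075 (squares), for lists with at least 7 tested members (y axis). The DMSO libraries are shared. The lines between the symbols are long for ATF4 pathway genes, amino acid transporters and replication genes, whose circles stand nearer to 0 than their squares.

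In some genes the DMSO mean lay between those of the compounds. DTL, which targets CDT1 for degradation, had 24.9 and 24.2 FPKM with ABBV-744, 7.75 and 6.35 FPKM with ABBV-075 and 26.5 and 22.2 FPKM with DMSO, with a difference of 1.67 ± 0.11 (adjusted p = 3.15e-08). ATP8B4, a lipid flippase, had 36.5 and 31.8 FPKM with ABBV-744, 10.6 and 10.8 FPKM with ABBV-075 and 30.6 and 24.5 FPKM with DMSO, with a difference of 1.58 ± 0.13. In both, ABBV-744 was not called against DMSO (0.02 and 0.31) and ABBV-075 was lower (-1.65 and -1.28). The galectin gene LGALS3 stood apart with ABBV-075 the other way, at 1.09 and 1.15 FPKM with ABBV-744, 5.19 and 5.11 FPKM with ABBV-075 and 1.16 and 1.49 FPKM with DMSO.

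In a further set the ABBV-075 mean lay between DMSO and ABBV-744, so ABBV-744 stood farther from DMSO. JUN differed from DMSO by -1.32 with ABBV-744 (adjusted p = 1.12e-05) and by -0.30 with ABBV-075, which was not called. EMID1, an extracellular matrix gene, had 3.85 and 5.52 FPKM with ABBV-744, 7.54 and 9.16 FPKM with ABBV-075 and 8.56 and 10.9 FPKM with DMSO, and the call of its difference, -0.73, was lost without ABBV-744 replicate 1 or ABBV-075 replicate 2 (adjusted p = 0.112 to 0.15). BASP1 (-0.59) was not called without any 1 of the compound libraries (adjusted p = 0.0819 to 0.246), nor was ARHGEF10L (0.55, adjusted p = 0.0847 to 0.124). The antisense transcript ZEB2-AS1 had 12.01 and 6.14 FPKM with ABBV-744, 4.78 and 5.17 FPKM with ABBV-075 and 3.53 and 3.07 FPKM with DMSO, with the ABBV-744 libraries far apart, and was called without ABBV-744 replicate 2 and not without any of the other 3 compound libraries (adjusted p = 0.09 to 0.419). Whether counting used the strand is not stated, so its reads cannot be told from those of ZEB2.

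Genes that changed with both compounds and were not called between them were named as well. IGFBP2, which binds insulin-like growth factors, had 12.6 and 13.9 FPKM with ABBV-744, 9.82 and 10.4 FPKM with ABBV-075 and 38.2 and 48.5 FPKM with DMSO. It fell by 1.63 log2 with ABBV-744 and by 1.99 with ABBV-075, and the difference between the compounds was 0.36 (95% interval -0.18 to 0.90). The carboxylesterase CES1 had 13.3 and 14.3 FPKM with ABBV-744, 9.36 and 9.69 FPKM with ABBV-075 and 39.9 and 42.5 FPKM with DMSO, and the difference was 0.49 (95% interval 0.11 to 0.88). SYTL1, a vesicle trafficking gene, had 1.77 and 1.802 FPKM with ABBV-744, 0.913 and 0.718 FPKM with ABBV-075 and 12.1 and 15.3 FPKM with DMSO, and the chemokine CCL2 had 2.19 and 1.36 FPKM with ABBV-744, 0.761 and 0.814 FPKM with ABBV-075 and 8.51 and 5.997 FPKM with DMSO. SYTL1 and CCL2 passed the filter through ABBV-744 alone. The interval of SYTL1 was 0.12 to 1.12, that of CCL2 0.14 to 1.09 and that of PEMT, an enzyme of phosphatidylcholine synthesis, 0.20 to 1.55. The granule protease CTSG had 31.4 and 34.8 FPKM with ABBV-744, 12.1 and 10.1 FPKM with ABBV-075 and 168 and 205 FPKM with DMSO. Its interval was 0.07 to 2.93, from the spread pooled over all 24 libraries. None of these intervals shows that the compounds act alike on these genes.

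The largest single differences included genes outside the lists. NAPSB, a pseudogene of an aspartic protease, had 22.7 and 23.6 FPKM with ABBV-744, 0.840 and 1.18 FPKM with ABBV-075 and 36.6 and 46.3 FPKM with DMSO, with a difference of 3.59 ± 0.14 (adjusted p = 1.60e-10). MS4A6A, a membrane protein of monocytes, had 296 and 249.7 FPKM with ABBV-744, 27.2 and 24.7 FPKM with ABBV-075 and 475 and 434 FPKM with DMSO, with a difference of 3.34 ± 0.15 (adjusted p = 3.39e-10). JDP2, a repressor of AP-1, had 24.5 and 25.5 FPKM with ABBV-744, 3.47 and 3.74 FPKM with ABBV-075 and 24.5 and 25.9 FPKM with DMSO, with a difference of 2.50 ± 0.26 (adjusted p = 3.70e-06). The ABBV-744 libraries of JDP2 overlapped DMSO, and those of NAPSB and MS4A6A lay below DMSO and far above ABBV-075. The transglutaminase gene TGM5 (2.66 ± 0.15) and C5orf20 (2.63 ± 0.14) completed the 12 largest rises.

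Among the largest falls, MARCKSL1, an actin regulator, had 40.8 and 43.7 FPKM with ABBV-744, 149 and 170.0 FPKM with ABBV-075 and 37.8 and 37.9 FPKM with DMSO, with a difference of -1.89 ± 0.16 (adjusted p = 4.22e-07). NXN, a thioredoxin relative, had 1.44 and 2.07 FPKM with ABBV-744, 8.21 and 9.61 FPKM with ABBV-075 and 0.686 and 0.693 FPKM with DMSO, with a difference of -1.85 ± 0.12 (adjusted p = 2.39e-08). The ABBV-744 libraries of MARCKSL1 read slightly above DMSO and those of NXN between DMSO and ABBV-075. The membrane scaffold gene EFR3B had 0.277 and 0.343 FPKM with ABBV-744, 6.81 and 6.78 FPKM with ABBV-075 and 0.0496 and 0.0459 FPKM with DMSO, the adaptor DOK4 0.604 and 0.530 FPKM with ABBV-744, 7.95 and 8.41 FPKM with ABBV-075 and 0.568 and 0.549 FPKM with DMSO and the protease CAPN5 0.843 and 0.856 FPKM with ABBV-744, 6.15 and 6.17 FPKM with ABBV-075 and 0.246 and 0.407 FPKM with DMSO. These 3 genes passed the filter through ABBV-075 alone. XAGE1B, a cancer-testis gene with near-identical copies, was listed at 0 in both ABBV-744 libraries, at 80.6 and 58.6 FPKM with ABBV-075 and at 0 and 10.7 FPKM with DMSO, so no fold is given.

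The gap between the compounds was then compared between MV-4-11 and the other lines, which share no library with it. The number of genes called between the compounds was 2649 in MV-4-11 (21.8%), 5594 of 12734 in SKM-1 (43.9%), 4464 of 11804 in Kasumi-1 (37.8%) and 4346 of 12561 in NCI-H1299 (34.6%). A test of the difference of the gaps called 912 of 10510 genes (8.68%) between MV-4-11 and the mean of SKM-1 and Kasumi-1, 390 with a higher (3.71%) and 522 with a lower value (4.97%) in MV-4-11. Against NCI-H1299 it called 781 of 10717 genes (7.29%). The first count was 473 without ABBV-744 replicate 1, 505 without ABBV-744 replicate 2, 493 without ABBV-075 replicate 1 and 443 without ABBV-075 replicate 2 of MV-4-11, and the second was 438, 420, 411 and 407. The DMSO pair of SKM-1 was the farthest apart of the 12 pairs, with r = 0.942 over the members, and enters the shared spread. Without that pair the counts were 1731 and 1467, and 3586 members, against 2649, were called between the compounds in MV-4-11. The ABBV-075 pair of Kasumi-1 was the next farthest apart, with r = 0.974, and enters the first test directly. No fit left out a compound library of SKM-1, Kasumi-1 or NCI-H1299, so how far the counts rest on these libraries was not tested.

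MYC was among the genes with the widest difference. It had 121 and 139 FPKM with ABBV-744 and 3.17 and 3.26 FPKM with ABBV-075 in SKM-1, and 125 and 118 FPKM with ABBV-744 and 29.4 and 28.1 FPKM with ABBV-075 in Kasumi-1. Its gap was 0.71 in MV-4-11, 4.96 in SKM-1 and 2.04 in Kasumi-1, and MV-4-11 lay 2.78 ± 0.21 below the mean of both (adjusted p = 2.79e-06). Against NCI-H1299, with a gap of 0.33, MV-4-11 was not called apart. Of the 34 MYC target and nucleolar genes 23 were lower and none higher in the test of gaps, at 27 and 0 with an unadjusted p under 0.05. Their median gap was 0.28 in MV-4-11, 1.29 in SKM-1, 0.82 in Kasumi-1 and 0.62 in NCI-H1299. NME1, a nucleoside kinase of that list, had a gap of 0.64 in MV-4-11, not called there without ABBV-744 replicate 1 (adjusted p = 0.065), 3.82 in SKM-1 and 2.78 in Kasumi-1.

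ATF4 pathway genes went the other way, with 13 of 20 higher and 1 lower in MV-4-11 than in the mean of SKM-1 and Kasumi-1. Their median gap was 1.17 in MV-4-11, 0.61 in SKM-1, -0.01 in Kasumi-1 and 0.20 in NCI-H1299. DDIT4 had 16.2 and 18.8 FPKM with ABBV-744 and 26.8 and 19.6 FPKM with ABBV-075 in SKM-1, so its gap of 2.22 in MV-4-11 was -0.37 there and 0.22 in Kasumi-1. ASNS had a gap of 1.11 in MV-4-11, -0.03 in SKM-1 and -1.04 in Kasumi-1, and ALDH1L2 one of 2.62 in MV-4-11, 0.81 in SKM-1 and -0.30 in Kasumi-1. Both DDIT3, a stress factor, and PCK2 were called higher in MV-4-11 as well. Replication genes were less apart, with 5 of 38 called higher, and with median gaps of 1.01 in MV-4-11, 1.37 in SKM-1, 0.35 in Kasumi-1 and 1.23 in NCI-H1299.

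Primary granule genes separated the lines in the other direction, with 6 of 7 lower in MV-4-11. ELANE, neutrophil elastase, had 69.3 and 73.9 FPKM with ABBV-744 and 102 and 111 FPKM with ABBV-075 in MV-4-11. In SKM-1 it had 124 and 163 FPKM with ABBV-744 and 3.32 and 2.57 FPKM with ABBV-075, and in Kasumi-1 538 and 683 FPKM with ABBV-744 and 191 and 126 FPKM with ABBV-075. PRTN3, a related protease, and LMO2, a factor of blood progenitors, showed the same order, with gaps of -0.27 and -0.25 in MV-4-11 and 5.62 and 3.82 in SKM-1. Cholesterol and fatty acid genes had 8 of 30 lower in MV-4-11 and none higher, with 15 and 0 at an unadjusted p under 0.05. Their median gap was -0.15 in MV-4-11, 0.46 in SKM-1, 0.28 in Kasumi-1 and 0.12 in NCI-H1299.

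**Figure D5:**
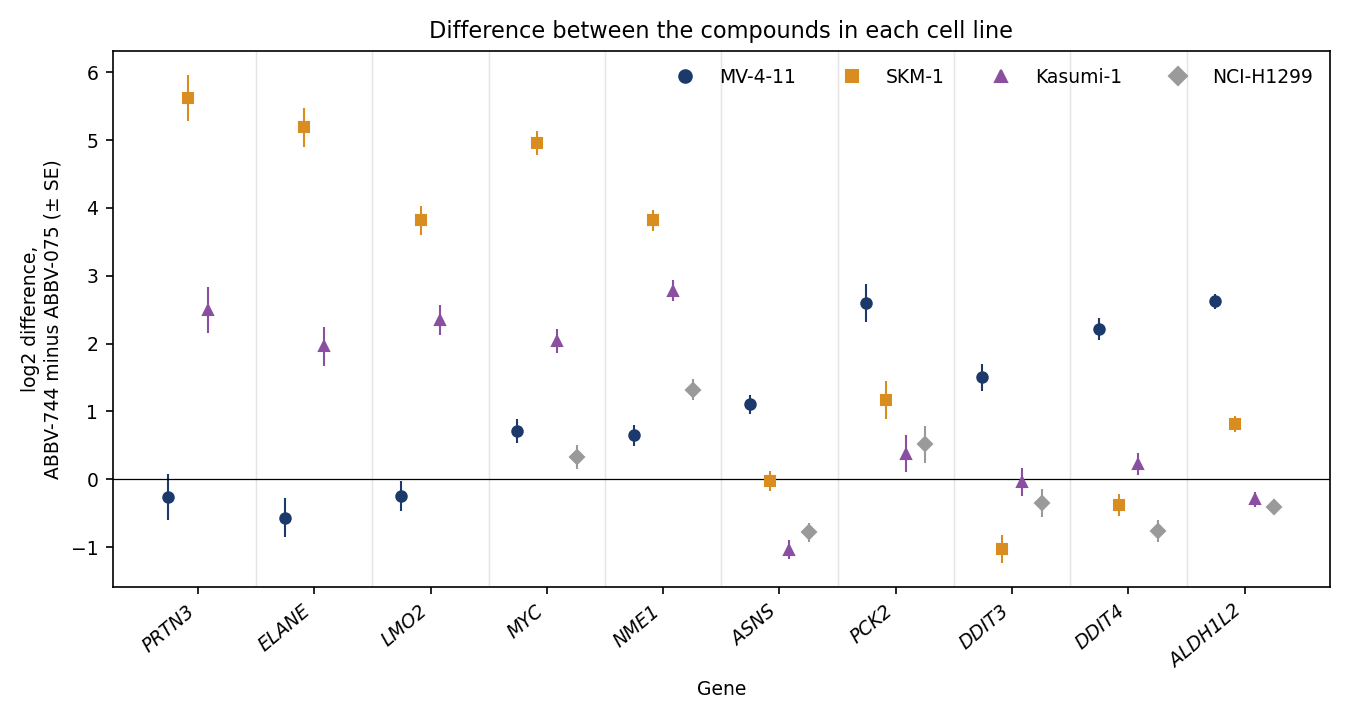
Difference between ABBV-744 and ABBV-075 in each cell line (y axis, log2, ± SE, 2 libraries per group) for the 10 genes named from the test of gap differences between MV-4-11 and the mean of SKM-1 and Kasumi-1 (x axis). MYC, NME1, LMO2, ELANE and PRTN3 lie lower in MV-4-11 (circles) than in SKM-1 (squares) and Kasumi-1 (triangles), and ASNS, PCK2, DDIT3, DDIT4 and ALDH1L2 lie higher. ELANE, PRTN3 and LMO2 were not tested in NCI-H1299 (diamonds).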

How the data were processed

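Poly-A RNA was sequenced from 24 libraries of 4 established cell lines. The authors deposited 1 table of FPKM values, and the submitters' processing notes name DESeq2 without version or role. Of the aligner, quantifier, genome build, annotation and strandedness the entry is: not given in the sources used here. FPKM is not a count and is relative to the library total, so depth, counting error and RNA per cell are unknown. FPKM sums of the MV-4-11 libraries were 610228 to 666217.

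Values were analysed as log2(FPKM + 1), which understates changes of low genes. A model of 12 group means over 24 libraries was fitted with limma 3.58.1 in R 4.3.3 (eBayes with trend and robust, statmod 1.5.0). It was also run on simulated data with independent noise of equal spread in all groups. The real pairs differ in spread, so that run cannot show how reliable the calls are here. Genes in the fit had 1 FPKM in 2 libraries of at least 1 line. Tests were two-sided, with Benjamini-Hochberg adjustment over all genes tested in a comparison. An exact permutation test of 2 libraries against 2 has a smallest p of 0.333, and the calls therefore use the spread shared across genes. Intervals are at 95%. Python 3.11.15, pandas 2.3.3, numpy 2.4.6 and matplotlib 3.10.9 made tables and plots. Alternatives were pseudocounts, filters, scalings, other fits and leaving out each library.

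The members, the 39 gene lists and the naming rule were chosen with earlier results of these data known. Of 780 list entries 762 matched by symbol, 17 by another name or identifier and 1 not at all. The rule named the 12 largest rises and 12 largest falls with at least 5 FPKM in the higher group, a fixed set of BET response genes, up to 4 called and 2 uncalled members per list, and genes by the order of the 3 group means or by the difference between lines. Promoters came from RefSeq (GRCh38.p14), 1 per symbol, matched by symbol. The result for respiratory chain genes is not reported here.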

Additional observations from a re-analysis of the deposited data

Results flagged for a closer look

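The gap between ABBV-744 and ABBV-075 differed between MV-4-11 and the mean of SKM-1 and Kasumi-1 in 912 genes by a test of the difference itself (limma, adjusted p under 0.05), and between MV-4-11 and NCI-H1299 in 781 genes. The genes named from the first test are given here with MV-4-11 minus the mean of the other leukaemia lines. The gap was wider towards ABBV-744 in MV-4-11 for ALDH1L2 (2.36 log2), DDIT4 (2.29), DDIT3 (2.04), PCK2 (1.82) and ASNS (1.64). It was lower in MV-4-11 for PRTN3 (-4.32), ELANE (-4.14), LMO2 (-3.33), MYC (-2.78) and NME1 (-2.65). For PRTN3, ELANE and LMO2 the compounds were not called apart in MV-4-11. The mean of SKM-1 and Kasumi-1 takes both lines as fixed. Groups of 2 libraries are too small for a test of outlying samples.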

How the results depend on the processing

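The count of genes called between ABBV-744 and ABBV-075 was 1636 to 2529 when 1 of the 6 MV-4-11 libraries was left out, against 2649, and 1800 to 3700 in the other settings. The count of ABBV-744 against DMSO (1209) was 803 with a pseudocount of 0.1, 659 with a filter of 5 FPKM, 1825 in a fit of the 6 MV-4-11 libraries, 2057 without the SKM-1 DMSO libraries and 551 to 1097 when 1 library was left out. ABBV-075 against DMSO (5050) ran from 3622 to 6312. The difference from the mean of SKM-1 and Kasumi-1 (912) was 1866 with no filter, 496 with a filter of 5 FPKM, 1731 without the SKM-1 DMSO libraries and 443 to 812 when 1 library was left out. The difference from NCI-H1299 (781) was 1946 with no filter, 425 with a filter of 5 FPKM, 1467 without the SKM-1 DMSO libraries and 407 to 713 when 1 library was left out. The cause was not tested. Fits of MV-4-11 alone give no value for differences between lines. Leaving out a library leaves 1 in its group, which is assumed to vary like the others. For the 224 named genes 3569 values were computed under the alternatives, of which 160 lost the call, 87 gained it and none reversed a called sign. Median-of-ratios scaling gave 2693 calls, 52.0% of them higher, and quantile normalization 2624, 50.2% higher, against 55.8%. No paired analysis was possible because the labels carry no replicate numbers, and those used here only name the libraries. With 2 libraries per group and no counts, the precision of low genes is unknown.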
